A study of Mus musculus with 36 samples.

Results

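The genes described here are 10 collagen chains of the interstitial matrix, Col1a1, Col1a2, Col3a1, Col5a1, Col5a2, Col6a1, Col6a2, Col6a3, Col14a1 and Col15a1, followed through treatment of mice with a soluble lymphotoxin-beta receptor. Every probe set annotated to 1 of these symbols and to no other gene was taken, which gave 20 probe sets, 18 of 22626 on an Affymetrix oligonucleotide array named A here and 2 of 22511 on its companion B. Of these, 17 were bright enough for a test, 16 from A and 1 from B, and each of the 10 genes had at least 1 of them. The RNA came from whole mesenteric lymph nodes, the nodes that drain the gut. Mice given PBS stood as day 0, and mice given the soluble receptor, which competes with the cellular receptor for its ligands, were sampled at days 1, 2, 3, 27 and 35. The 6 groups held 3 samples apiece on A and again on B, 36 arrays in all. The sources used here state neither strain, age, dose or route nor whether replicate samples are from different mice, and a p-value therefore reflects only how much these samples vary, which may be technical. The labels name no PBS group beyond day 0 and no control fusion protein, so treatment time, harvest and exposure to a foreign protein cannot be told apart from the decoy, and every comparison with PBS uses the same 3 control samples. For 1 of the day 1 samples on B the source field is a stray phrase, and that sample was grouped by title and description.

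Collagens are triple helices of alpha chains, made as procollagens in the endoplasmic reticulum, trimmed outside the cell and crosslinked into fibrils. Types I, III and V form the fibrils themselves, with type I (Col1a1, Col1a2) and type III (Col3a1) as the bulk and type V (Col5a1, Col5a2) as the chains that start a fibril and limit its width. Type VI (Col6a1, Col6a2, Col6a3) assembles into beaded filaments near cells, type XIV (Col14a1) sits on the fibril surface, and type XV (Col15a1) lies beside basement membranes. In lymph nodes fibroblastic reticular cells wrap such fibrils into conduits that carry lymph-borne molecules, and these cells receive lymphotoxin signals through the receptor that the decoy competes with. The capsule and the walls of larger vessels hold fibrillar collagen as well.

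Intensity on these arrays is a relative brightness per probe set, so levels are compared between samples for 1 probe set and never between probe sets. Array medians lay between 273 and 299.5 on array A and between 149.8 and 165 on array B. B cell markers (8 of 9 listed tested) and T cell markers (8 of 10 listed tested) were bright, as for a lymph node. Day 3 sample 3, day 27 sample 2 and day 35 sample 3 carried the lowest array weights on array A (0.232 to 0.287, against up to 3.37 for the others). In whole tissue, more cells of a type and more RNA per cell cannot be told apart.

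The collagens had the most calls at day 35. At that time 9 of the 17 tested probe sets, in 7 of the 10 genes, were called higher than PBS at an adjusted p under 0.05 and 0 were lower. Across array A, 1.77% of the 12231 tested probe sets were called higher at day 35 and 5.58% lower. The chains with a call were Col1a1, Col1a2, Col3a1, Col5a2, Col6a2, Col6a3 and Col14a1, with rises from 1.24-fold to 1.86-fold. Col5a1 and Col6a1 were not called at day 35, and Col15a1 stood at its PBS level. The median log2 change of the 16 tested collagen probe sets of array A was 0.38 at day 35, beside 0.03 over all tested probe sets of that array. In all 3 day 35 samples 15 of the 17 tested probe sets lay above all 3 PBS samples, a pattern that 15.9% of array A and 15.4% of array B showed.

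**Figure D1:**
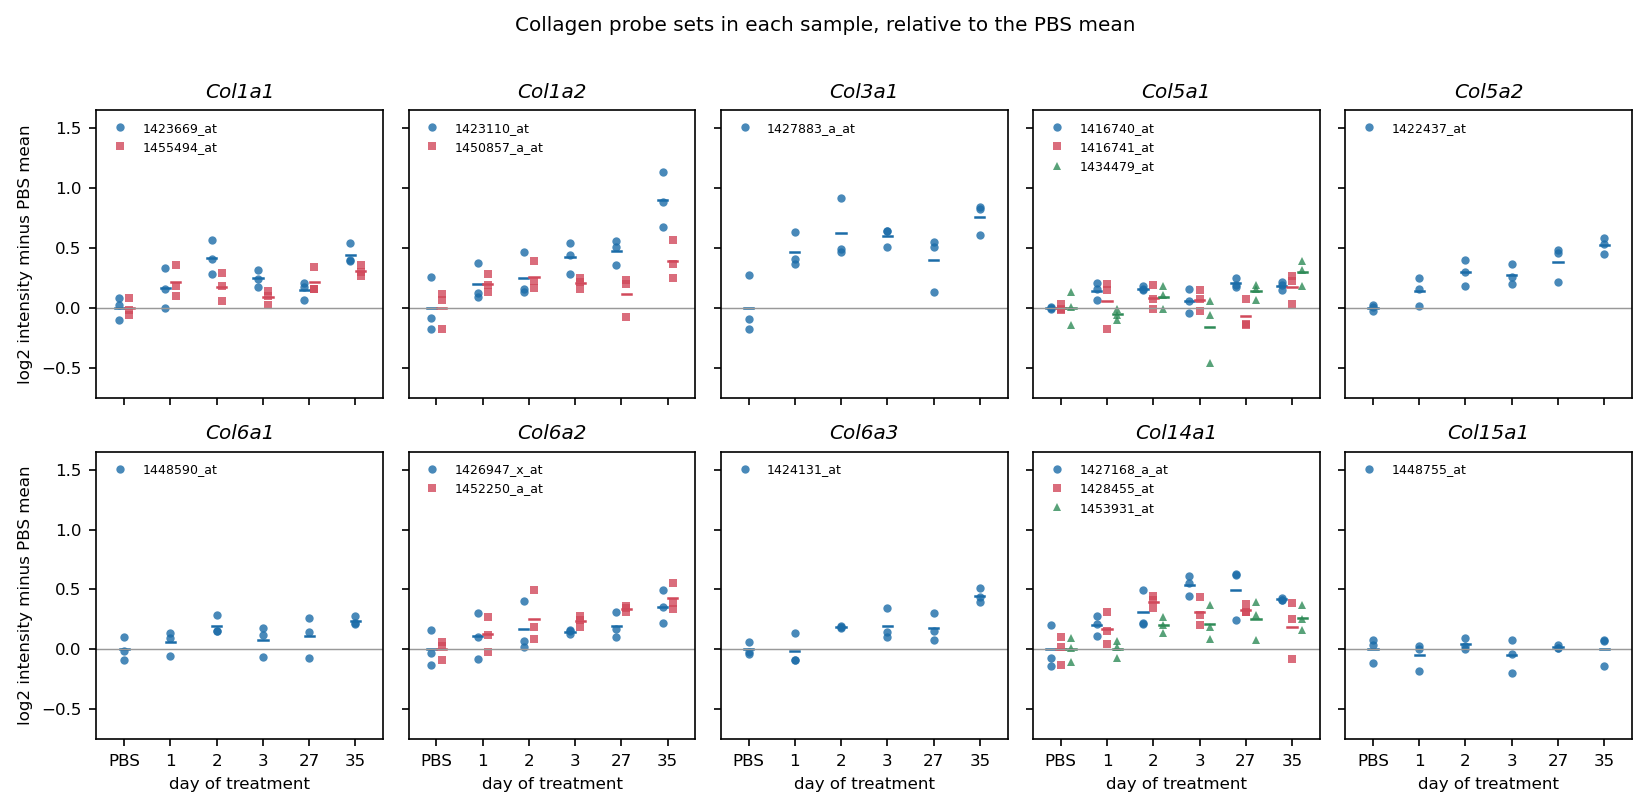
Log2 intensity of each tested collagen probe set in every sample, minus the mean of the 3 PBS samples, by day of treatment; points are samples, short bars are group means, and colours and shapes mark the probe sets of 1 gene. The day 35 points of Col1a1, Col1a2, Col3a1, Col5a1, Col5a2, Col6a1, Col6a2 and Col6a3 lie above all PBS points of the same probe set, while those of Col15a1 overlap them.

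Type I collagen rose at day 35 in both chains and with all 4 of its tested probe sets. Col1a2 encodes the alpha-2 chain, and its probe set 1423110_at read 196, 265 and 209 in the PBS samples and 354, 486 and 408 at day 35. The day 35 values lay above every other sample of the series, and days 27 and 35 were the only neighbours in its order of group means (PBS, 1, 2, 3, 27, 35) that did not overlap. The log2 change at day 35 was 0.90 (SE 0.13, 95% interval 0.62 to 1.18, adjusted p = 0.000904), or 1.86-fold. Between these ends it read 236, 241 and 287 at day 1, 242, 247 and 306 at day 2, 268, 301 and 323 at day 3, and 315, 283 and 325 at day 27. The means of days 1 and 2 thus lay within the spread of the PBS samples, and all samples of days 3 and 27 lay above them. The changes at days 3 and 27 were 0.42 and 0.47 and were not called (adjusted p = 0.225 and 0.0581).

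The brighter Col1a2 probe set, 1450857_a_at, changed less. It read 1517, 1789 and 1849 in PBS samples, 2014, 1620.4 and 1969.7 at day 27 and 2038, 2539.6 and 2203 at day 35, so that day 27 overlapped PBS and day 35 did not. Its log2 change at day 35 was 0.39 (SE 0.099, adjusted p = 0.0204), 1.31-fold, and this call ended without PBS sample 1 or day 35 sample 2 (adjusted p up to 0.128), when dim probe sets were kept in the fit (0.0563) and with only the groups compared in the fit (0.0569). The 2 probe sets of Col1a2 followed each other over the 18 samples of array A with r = 0.77, but their orders differed, since the day 27 mean was the second highest of 6 in 1423110_at and the second lowest in 1450857_a_at. A Col1a2 probe set on array B, 1446326_at, lay under the array's 20th percentile in all 18 samples and was not tested.

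Col1a1, the alpha-1 chain and the major chain of type I, rose by 0.44 at day 35 (SE 0.0905, adjusted p = 0.00593) with probe set 1423669_at, which read 725, 753 and 666 in PBS samples and 937, 1041 and 939 at day 35. It had already read 947, 866 and 1056 at day 2, all above PBS, with a change of 0.42 that missed the threshold (adjusted p = 0.114). At day 27 it read 826, 745 and 804 and overlapped PBS. The other Col1a1 probe set, 1455494_at, read 664, 685 and 735 in PBS and 833, 852 and 888 at day 35, a change of 0.30 (SE 0.0815, adjusted p = 0.0283) that was no longer called without PBS sample 1 or 2 or day 35 sample 2 or 3 (adjusted p up to 0.0913), nor with arrays scaled to a common median (0.0775). The 2 Col1a1 probe sets correlated with r = 0.58 over 18 samples.

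Type III collagen, the main fibril of reticular fibres, had the largest log2 change of the 17 probe sets in the mean of days 1 to 3. Its tested probe set, 1427883_a_at, read 1208, 1644 and 1273 in PBS samples. It read 1803, 1756 and 2112 at day 1, 1883, 1916 and 2566 at day 2, and 2128, 2131 and 1942 at day 3, so that all early samples lay above all 3 PBS samples. The log2 changes were 0.47 (adjusted p = 0.998), 0.62 (adjusted p = 0.114) and 0.60 (adjusted p = 0.0531) by day, and the mean of the 3 early days rose by 0.56 (SE 0.11, adjusted p = 0.0464), 1.48-fold. That was the 1 call among the 17 probe sets in the early mean, where 0.0409% of array A and 0% of array B were called higher. In all 10 collagen probe sets had an unadjusted p under 0.05 there, beside 6.5% of array A. The Col3a1 call rested on single samples, since leaving out any of 9 of the 12 arrays compared ended it, namely PBS sample 1 or 3, any of day 1 or day 3, or day 2 sample 3 (adjusted p up to 0.46).

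At day 27 Col3a1 read 1992, 1492 and 1943 and overlapped PBS through sample 2, with a change of 0.40 (adjusted p = 0.118). Without that sample the change was 0.53 (adjusted p = 0.0306). At day 35 it read 2075, 2440.1 and 2418, a rise of 0.76 (SE 0.135, 95% interval 0.48 to 1.04, adjusted p = 0.00265) or 1.69-fold, which was called with any single array left out. A dimmer Col3a1 probe set, 1427884_at, missed the filter on dim values and was not tested. It read 89.7, 94.6 and 85.7 in PBS samples and 148, 217 and 169 at day 35, above all other samples of the series. Col3a1 and Col5a2 are neighbours on mouse chromosome 1 with 0 annotated genes between them.

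Promoters of 7 of the 10 genes, 8 in all, were found in the RefSeq table of assembly GRCm38.p6, each from 250 bases before to 50 bases after the annotated start. Col1a1, Col5a2 and Col14a1 had none there. The promoters of the 2 genes with the largest rises are printed beside that of Col15a1, which did not rise, each 5′ to 3′ on the plus strand with motif matches in capitals. The motifs searched on both strands were CCAAT (the NF-Y box), GGGCGG (the GC box), TATAAA (the TATA box) and TGANTCA (the AP-1 motif), and none of these overlaps another in the lines shown.
Col1a2, chr6:4505368-4505667: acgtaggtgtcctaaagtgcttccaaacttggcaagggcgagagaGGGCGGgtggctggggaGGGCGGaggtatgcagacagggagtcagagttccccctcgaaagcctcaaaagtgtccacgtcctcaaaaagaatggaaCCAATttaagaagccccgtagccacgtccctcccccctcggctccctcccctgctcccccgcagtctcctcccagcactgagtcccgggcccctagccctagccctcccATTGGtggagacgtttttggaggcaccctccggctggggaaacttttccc
Col3a1, chr1:45311288-45311587: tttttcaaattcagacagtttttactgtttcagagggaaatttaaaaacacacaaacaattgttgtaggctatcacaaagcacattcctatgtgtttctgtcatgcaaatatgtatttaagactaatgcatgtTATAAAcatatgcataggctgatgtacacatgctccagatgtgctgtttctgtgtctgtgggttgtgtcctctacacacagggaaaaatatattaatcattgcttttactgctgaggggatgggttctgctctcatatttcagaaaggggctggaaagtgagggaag
Col15a1, chr4:47207762-47208061: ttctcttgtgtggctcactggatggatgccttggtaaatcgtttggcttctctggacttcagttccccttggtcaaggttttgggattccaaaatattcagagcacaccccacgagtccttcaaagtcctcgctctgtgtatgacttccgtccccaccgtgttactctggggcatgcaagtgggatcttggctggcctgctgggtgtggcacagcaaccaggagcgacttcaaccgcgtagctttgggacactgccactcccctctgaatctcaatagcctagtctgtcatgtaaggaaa
The Col1a2 window holds CCAAT in each orientation (the reverse match reads as its complement) and 2 GGGCGG matches, the Col3a1 window holds 1 TATAAA, and the Col15a1 window holds none of the 4 motifs. Of the 32851 promoters in the table, 37.4% hold CCAAT, 35.7% GGGCGG, 13.6% TATAAA and 7.81% TGANTCA. Among the collagen promoters CCAAT occurred in Col1a2, GGGCGG in Col1a2, Col5a1 and Col6a2, TATAAA in Col3a1 and TGANTCA in Col6a1. Of the chains called at day 35 that had a promoter here, Col1a2 and Col6a2 held GGGCGG, and Col3a1 and Col6a3 did not. Col5a1, which was not called at day 35, held it as well.

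Of the type V chains, Col5a2 was called higher than PBS at days 27 and 35, and Col5a1 at neither day. Col5a2 (1422437_at) read 337, 345 and 349 in PBS samples, 384, 347 and 408 at day 1, 391, 422 and 454 at day 2, and 394, 410.0 and 443 at day 3. It then read 472, 399 and 479 at day 27 and 471, 516 and 498 at day 35. From day 2 on, every sample lay above every PBS sample, and no pair of neighbouring groups in its order was separate. The rise was called at day 27 (0.38, SE 0.0836, adjusted p = 0.0156) and at day 35 (0.52, SE 0.0836, adjusted p = 0.0013, 1.44-fold). The day 27 call ended without any 1 of 5 of the 6 arrays compared, day 27 sample 2 being the exception (adjusted p up to 0.0825). It also ended with only the groups compared (0.078). The day 35 call did not end without any of these arrays. A dimmer Col5a2 probe set, 1450625_at, was not tested and read 118, 129 and 91.2 in PBS samples against 159, 177 and 151 at day 35.

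Col5a1, the partner chain, was not called at day 35. Yet all 3 day 35 samples lay above all 3 PBS samples in each of its 3 probe sets, a pattern of 15.9% of array A. Its day 35 changes of 0.19, 0.17 and 0.30 were smaller than the 0.52 of Col5a2, a difference between chains that was not tested. Probe set 1416740_at read 673, 670.1 and 677 in PBS samples, 799.9, 769 and 761 at day 27 and 783, 769 and 747 at day 35, and rose by 0.20 (SE 0.0545, adjusted p = 0.0329) in the mean of both late days. This small call ended without any PBS sample, day 27 sample 1, or day 35 sample 1 or 2 (adjusted p up to 0.112), with common-median scaling (0.0951) and with only the groups compared (0.0947). The probe set 1416741_at read 342, 334 and 332 in PBS and 392, 404 and 343 at day 35 (0.17, adjusted p = 0.307), and 1434479_at read 419.6, 385 and 346 against 475, 503 and 433 (0.30, adjusted p = 0.103). Over 18 samples the 3 probe sets correlated with each other at r = 0.27 to 0.59.

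Of the beaded-filament chains, Col6a2 and Col6a3 rose at day 35 and Col6a1 was not called. Col6a3 (1424131_at), the large chain, read 546, 579.7 and 540.0 in PBS samples, 522, 522 and 609 at day 1, 634, 627 and 631 at day 2, and 597, 612 and 704 at day 3. It read 687, 615 and 587 at day 27 and 750.2, 729 and 792 at day 35. Its day 35 samples lay above all other samples of the series, with a rise of 0.45 (SE 0.0805, adjusted p = 0.00282), 1.36-fold, called with any single array left out.

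Col6a2 rose with 1452250_a_at, which read 782, 765 and 704 in PBS samples, 961, 932 and 955 at day 27 and 981, 945 and 1099 at day 35. Both late groups lay above PBS and overlapped each other. The day 35 change was 0.42 (SE 0.0958, adjusted p = 0.0113), 1.34-fold, and was not called without PBS sample 3 (adjusted p = 0.0629). The second Col6a2 probe set, 1426947_x_at, read 605, 695 and 565 against 792, 722 and 873, a change of 0.36 just outside the threshold (adjusted p = 0.0599), and followed the first with r = 0.89. Col6a1, whose gene lies beside that of Col6a2 on chromosome 10 with 0 protein-coding genes between them, read 734, 794 and 697 in PBS and 855, 896 and 863 at day 35. All 3 were above PBS, yet the change of 0.23 was not called (95% interval 0.047 to 0.42, adjusted p = 0.121).

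Col14a1, which decorates fibril surfaces, was called higher at day 3, day 27 and day 35. Probe set 1427168_a_at read 428, 542 and 448 in PBS samples, 571, 508 and 544 at day 1, 548, 546 and 662 at day 2, and 691, 721 and 642 at day 3. It read 723, 556 and 729 at day 27 and 626, 625 and 635 at day 35. From day 2 every sample lay above PBS, and the highest group mean was that of day 3. The rise was 0.54 at day 3 (SE 0.107, adjusted p = 0.0279), 0.50 at day 27 (adjusted p = 0.0148) and 0.42 at day 35 (adjusted p = 0.0224). At day 3 it was the 1 collagen probe set of 17 called, against 0.139% of array A called higher. Each of these calls ended without PBS sample 1 or 3, the day 3 call also without any day 3 sample, the day 27 call without day 27 sample 1 or 3, and the day 35 call without day 35 sample 2 or 3 (adjusted p up to 0.146, 0.0796 and 0.0981). With dim probe sets kept the day 3 and day 35 calls ended (0.0828 and 0.0637), and with only the groups compared those of day 3 and day 27 (0.0801 and 0.0952).

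The other Col14a1 probe sets were higher too but were not called. On array A, 1428455_at read 429, 406 and 366 in PBS samples, 531, 508 and 543 at day 2 and 522, 478 and 378 at day 35, with sample 3 of day 35 inside the PBS range. Its change was 0.40 at day 2 (adjusted p = 0.283) and 0.19 at day 35 (adjusted p = 0.284), and 0.32 at day 35 without that sample (adjusted p = 0.0448). On array B, 1453931_at read 161, 170.3 and 149 in PBS and 191, 179 and 206 at day 35 (0.26, SE 0.0985, adjusted p = 0.153), and it followed 1427168_a_at with r = 0.78 over samples of the same day and number. The labels do not state that equal numbers on arrays A and B are the same RNA.

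Col15a1, a collagen with glycosaminoglycan chains that sits at the outer face of vessel and muscle basement membranes, was flat. It read 581, 599 and 522 in PBS samples, 567, 578 and 605 at day 2, 582, 571 and 570.2 at day 27, and 598, 515 and 592 at day 35. Every group overlapped PBS. The day 35 change was 0.0024 (SE 0.0834, 95% interval -0.17 to 0.18, adjusted p = 0.99), an interval that leaves out a rise of the size called for the other chains at day 35.

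**Figure D2:**
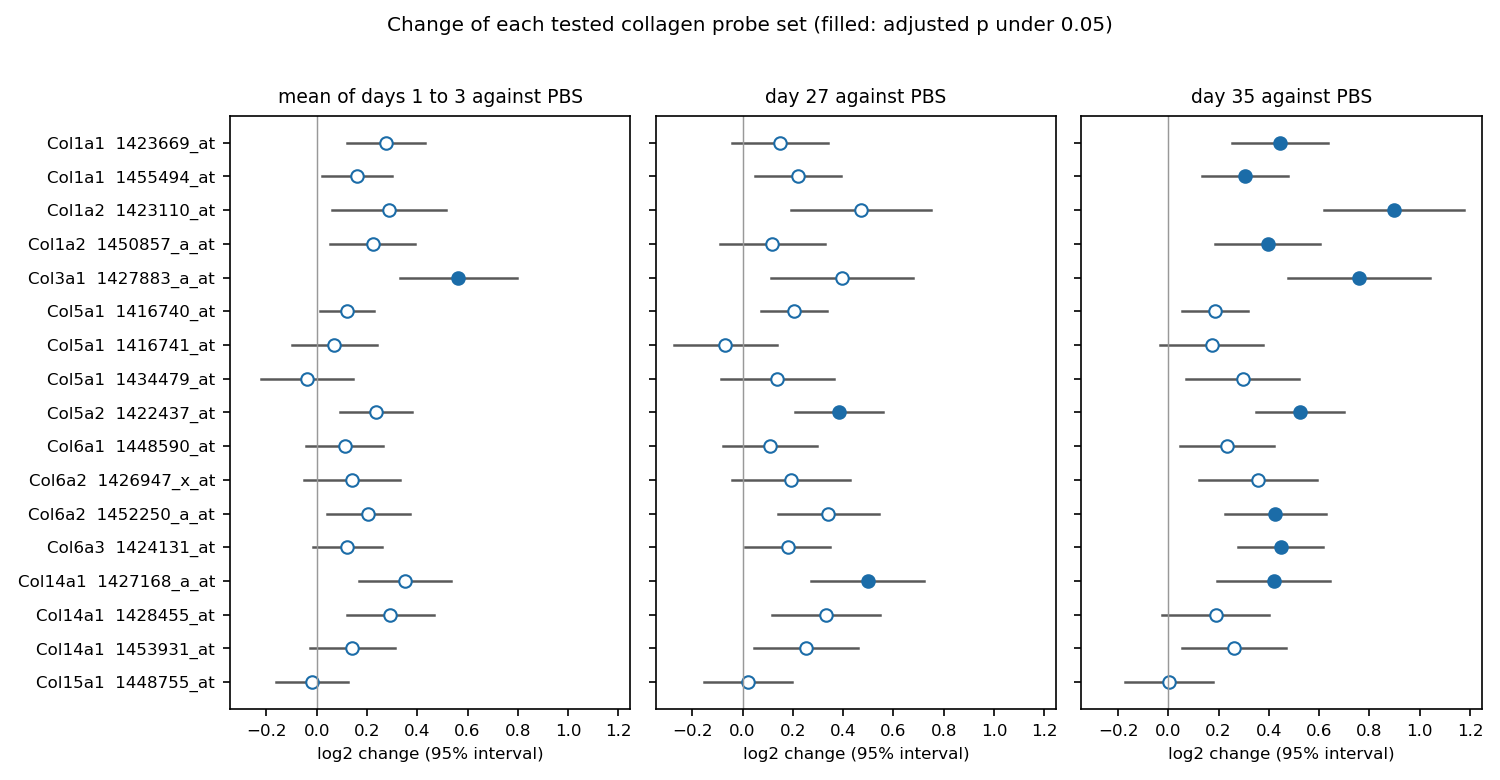
Log2 change against PBS of the 17 tested collagen probe sets in the mean of days 1 to 3, at day 27 and at day 35; points are estimates, lines are 95% intervals, and filled points have an adjusted p under 0.05. The panels hold 1, 2 and 9 filled points, all to the right of 0.

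The number of collagen calls differed by day. At day 1, 0 of 17 probe sets were called (0% of array A was called higher) and 3 had an unadjusted p under 0.05, beside 3.36% of array A, with 4 above all PBS samples beside 7.14%. At day 2 again 0 were called (0.0245% of array A higher), 11 had an unadjusted p under 0.05 beside 5.52% of array A, and 11 lay above all PBS samples beside 9.5%. At day 3 there was 1 call, 9 probe sets had an unadjusted p under 0.05 (10.1% of array A), and 9 lay above all PBS samples (9.08%). At day 27 there were 2 calls, Col5a2 and Col14a1 (0.58% of array A higher), 10 unadjusted p under 0.05 (18.4%) and 8 above all PBS samples (10.9%). At day 35 the 9 calls stood beside 14 unadjusted p under 0.05 (22.8%). The 1 tested probe set of array B was called at no day, on an array of which 0% was called higher at days 1, 2 and 27, 0.00799% at day 3 and 0.703% at day 35, and on which 3.61%, 7.98%, 7.79%, 5.78% and 15.4% lay above all PBS samples by day. The median log2 change of the 16 probe sets of array A was 0.14, 0.22, 0.20, 0.20 and 0.38 at days 1, 2, 3, 27 and 35, while that of all tested probe sets stayed between 0.019 and 0.046.

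Taking the mean of the centred log2 values of the 16 probe sets as a collagen level, PBS samples ran from -0.25 to -0.12, day 1 from -0.18 to 0.050, day 2 from -0.02 to 0.16 and day 3 from -0.03 to 0.046. Day 27 ran from -0.06 to 0.09 and day 35 from 0.16 to 0.21. Day 2, day 3, day 27 and day 35 did not overlap PBS, and day 35 overlapped day 2 only, through day 2 sample 3. The level is a description of the chosen genes and was not tested.

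In the mean of days 27 and 35 against PBS, 9 of 17 probe sets in 8 genes were called higher, beside 2.58% of array A (5.76% lower) and 0.384% of array B, and 15 had an unadjusted p under 0.05 (23.9% of array A). The changes were 0.68 for Col1a2 (1423110_at), 0.58 for Col3a1, 0.46 for Col14a1 (1427168_a_at), 0.45 for Col5a2, 0.38 for Col6a2 (1452250_a_at) and 0.31 for Col6a3. Col1a1 rose by 0.30 and 0.26 with its 2 probe sets, and Col5a1 by 0.20 with 1 of 3. Set against the mean of days 1 to 3 rather than PBS, 4 probe sets were higher late, beside 4.98% of array A and 0.24% of array B. An unadjusted p under 0.05 was found for 5 of 17, about the same share as the 29.4% of array A. The 4 called were Col1a2 1423110_at (0.40, SE 0.0854, adjusted p = 0.00381), Col5a1 1434479_at (0.26, adjusted p = 0.0168), Col5a2 1422437_at (0.22, adjusted p = 0.00973) and Col6a3 1424131_at (0.19, adjusted p = 0.0175). Col3a1 and Col1a1 1423669_at were not called there, with differences of 0.014 (95% interval -0.17 to 0.20) and 0.02 (95% interval -0.10 to 0.14).

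Single arrays bore on some of the late calls. In the late mean, the Col1a1 calls ended without PBS sample 1, 2 or 3, day 27 sample 1 or 3, or day 35 sample 2, depending on the probe set (adjusted p up to 0.162), that of 1455494_at also with common-median scaling (0.0991) and with only the groups compared (0.0591), and those of Col6a2 and Col6a3 without PBS sample 3 (0.0648 and 0.0592). Against the early mean, Col6a3 was not called without day 27 sample 1 (0.0571) or with common-median scaling (0.0759), nor Col5a1 1434479_at without day 35 sample 2 (0.0566). Day 35 against day 27 gave 0 calls by limma on either array (0% of array A), while 6 collagen probe sets had an unadjusted p under 0.05 beside 6.66% of array A. Among these 6 were Col1a2 1423110_at (0.43), Col3a1 (0.36), Col1a1 1423669_at (0.30, adjusted p = 0.465) and Col6a3 (0.27). Their 95% intervals lay above 0 but are not adjusted for the number of probe sets, and none of them was called. Of the 17 differences 13 were positive.

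The collagens followed each other to unequal degrees. Over the 18 samples of array A, which share day, array and RNA, the r of each probe set with the mean of the others was highest for Col5a2 (0.90), Col1a1 1423669_at (0.88) and Col3a1 (0.87). It was lowest for Col15a1 (0.27) and Col5a1 1434479_at (0.37). Once group means were removed the values ran from -0.10 for Col5a1 1434479_at and 0.20 for Col6a3 to 0.85 for Col3a1 and 0.92 for Col1a1 1423669_at. The 8 other genes whose log2 intensity had the highest r with the collagen mean over these 18 samples were Fstl1 (0.86), Slco3a1 (0.84), Lancl2 (0.80), Lima1 (0.80), Tnc (0.80), Mtss1 (0.80), Kmt5c (0.79) and Fam110c (0.79). Fstl1 is a secreted follistatin-like glycoprotein and Tnc the matrix protein tenascin-C, and their log2 changes at day 35 were 0.47 and 0.58. All 8 genes were picked by r over the same samples, in which the collagen mean was highest at day 35. Their day 35 changes are therefore not a separate result. With group means removed, r ran from 0.34 (Lancl2) to 0.74 (Lima1) over the 8 genes, with 0.68 for Fstl1 and 0.37 for Tnc.

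The genes that build, trim and cleave collagen gave 1 call in the late mean. Of the enzymes and chaperones that fold and modify procollagen, 0 of 16 tested genes were called in the late mean, and their median log2 change was 0.0023. Serpinh1, the collagen-specific chaperone, stood at 0.31 (adjusted p = 0.107) and the prolyl isomerase Ppib at -0.16 (adjusted p = 0.0771). Of the proteases and oxidases for propeptide removal and crosslinking, 0 of 7 were called (median 0.13), with the procollagen C-proteinase Bmp1 at 0.22 (adjusted p = 0.0696) and the lysyl oxidase-like enzyme Loxl1 at 0.13. Among 7 collagen-cleaving proteases and inhibitors only the gelatinase Mmp2 was called, higher by 0.28 (adjusted p = 0.0136). Among 11 receptors for collagen 0 were called (median 0.015).

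On the fibril surface, 1 of 16 tested regulators was called in the late mean. This was Lum, the leucine-rich proteoglycan lumican that regulates fibril width, at 0.64 (adjusted p = 0.000159), and it had also risen in the mean of days 1 to 3 (0.63, adjusted p = 0.000762). Postn, periostin, stood at 0.49 (adjusted p = 0.0546) and the median of the list at 0.17. The mean of this list followed the collagen mean with r = 0.90 over 18 samples and 0.80 with group means removed, and the collagen mean was computed from other genes. The list of collagen-cleaving proteases and inhibitors came next, with 0.73 and 0.76. Of 15 inducers of collagen genes, 1 rose and 2 fell, the growth factor receptor Pdgfra at 0.28 (adjusted p = 0.0357), the cytokine Tgfb1 at -0.22 (adjusted p = 0.0266) and the SRF coactivator Mrtfa at -0.24 (adjusted p = 0.0122). The transcripts of Tgfb2, Ccn2, Pdgfrb, Il4 and Il13 were too dim to be tested.

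Collagen chains outside the 10 described here gave 1 call. Of 32 other chains with a probe set of their own, 15 were too dim to be tested, among them Col11a1, Col5a3 and Col8a1. Among the 17 tested chains 1 was called in the late mean, Col4a2 of basement membranes, higher by 0.28 (adjusted p = 0.0398), and the median was 0.029, beside 0.30 for the 10 chains at their brightest probe sets. Col12a1, the relative of Col14a1 on fibril surfaces, stood at 0.12 (adjusted p = 0.208).

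**Figure D3:**
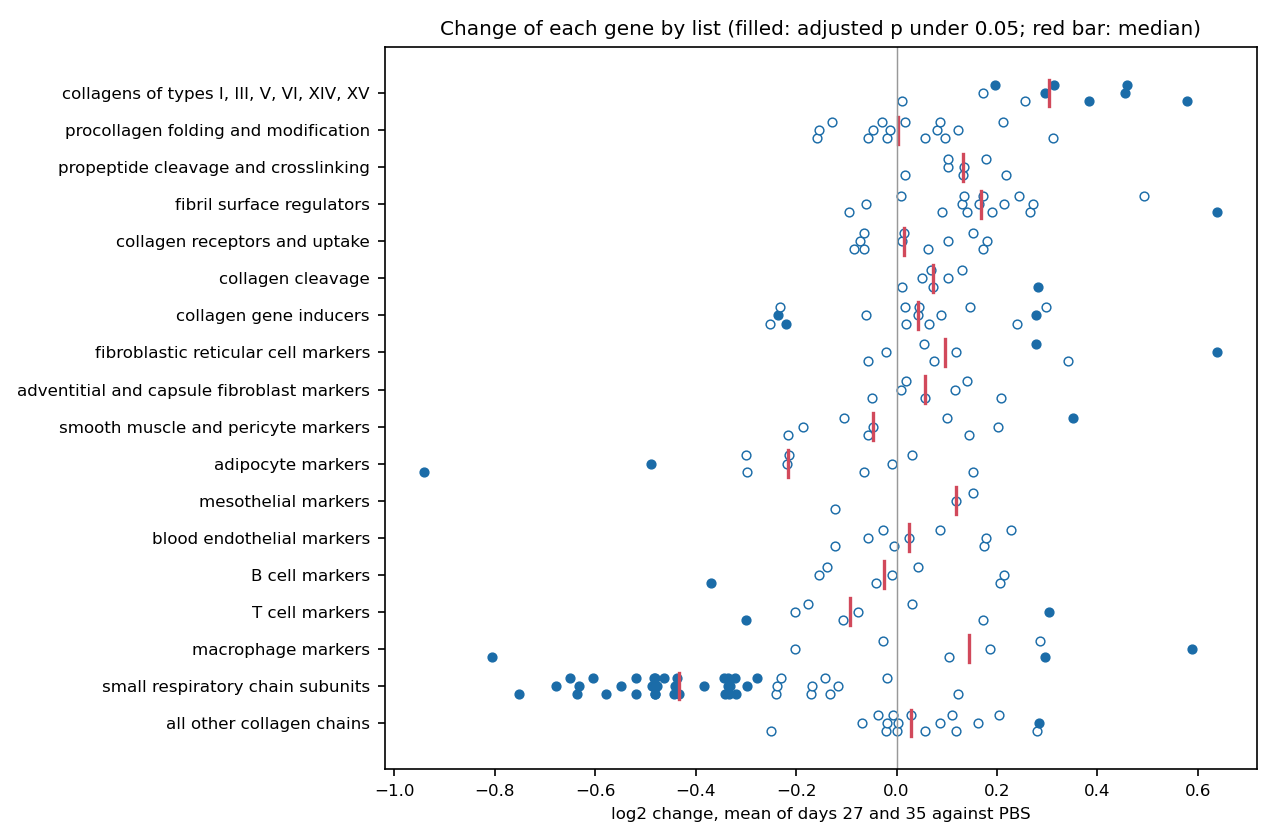
Log2 change of each tested gene in the mean of days 27 and 35 against PBS, 1 line per gene list and 1 tested probe set per gene; filled points have an adjusted p under 0.05 and red bars are medians. The 10 collagens have a median of 0.30, the 43 small respiratory chain subunits one of -0.43, and the other lists lie nearer to 0.

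Markers of cells that make collagen were called in some lists and not in others, beside 2.58% of array A called higher in the late mean. Of 8 tested markers of fibroblastic reticular cells, 2 rose in the late mean, Lum and Pdgfra, both also counted above. Cxcl12, the chemokine that these cells secrete, stood at 0.34 (adjusted p = 0.0562). In the mean of days 1 to 3 also 2 of the 8 were called higher, beside 0.0409% of array A. The mean of these markers ran from -0.27 to -0.059 in PBS samples. It ran from -0.049 to 0.038 at day 1, from 0.0089 to 0.033 at day 2 and from 0.043 to 0.073 at day 3. At day 27 it ran from -0.035 to 0.089 and at day 35 from -0.071 to 0.081. All samples of days 1, 2, 3 and 27 thus lay above PBS. Day 35 reached into the PBS range through sample 3 only, which had a low array weight. Their summed intensity ran from 10526 to 11632 in PBS samples and from 11716 to 13001 at day 35, and Ccl19 and Ccl21a had no probe set that names them alone. None of 7 adventitial and capsule fibroblast markers was called in the late mean (median 0.056). Of 9 smooth muscle and pericyte markers 1 rose in the late mean, Rgs5 (0.35, adjusted p = 0.0286). With the collagen mean, the adventitial and capsule list had r = 0.65 over 18 samples and 0.74 with group means removed. The reticular cell list had 0.59 and 0.23, the smooth muscle and pericyte list 0.014 and 0.33, and the blood endothelial list 0.26 and 0.54. Of 3 tested mesothelial markers 0 were called, and Msln and Wt1 lay under the floor in all samples (up to 67.0 and 84.5 intensity units). Of 9 blood endothelial markers 0 were called. The part of these cells in the collagen result was not tested.

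Some adipocyte, macrophage and lymphocyte markers were called beside the collagens. At day 35, 1.77% of array A was called higher and 5.58% lower, and in the late mean 2.58% and 5.76%. Of 10 tested adipocyte markers, 3 fell at day 35, the gluconeogenic enzyme Pck1 (-1.23, adjusted p = 0.00414), the lipid droplet protein Cidec (-0.77, adjusted p = 0.00598) and the lipase Lipe (-0.60, adjusted p = 0.00676), and their list median was -0.34. In the late mean 2 of the 10 fell, Pck1 (-0.94, adjusted p = 0.00737) and Cidec (-0.49, adjusted p = 0.0333). Their mean ran from 0.080 to 0.15 in PBS samples and from -0.48 to -0.11 at day 35, and their summed intensity from 27872 to 30261 and from 21166 to 26338. Of 8 macrophage markers, Adgre1 (0.59, adjusted p = 0.00253) and Csf1r (0.30, adjusted p = 0.0252) rose and Timd4 fell (-0.80, adjusted p = 0.00116) in the late mean. In the same late mean Cd79a fell among 8 B cell markers (-0.37, adjusted p = 0.00129), and among 8 T cell markers Cd5 rose (0.30, adjusted p = 0.0196) and Cd3d fell (-0.30, adjusted p = 0.0222).

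Small subunits of the respiratory chain, short nuclear transcripts chosen because earlier results on these samples had shown them low, moved against the collagens. At day 35, 35 of 43 were called lower (median -0.47) and 0 higher. Their mean ran from 0.12 to 0.16 in PBS samples, from -0.29 to -0.015 at day 27 and from -0.45 to -0.24 at day 35, and stood at -0.26 in day 3 sample 3. The summed intensity ran from 73914 to 76386 in PBS samples and from 51576 to 59503 at day 35. With the collagen mean it had r = -0.57 over 18 samples and -0.017 once group means were removed. With this mean as a covariate in the fit, all 26 calls of collagen probe sets over the 9 comparisons were lost and 1 was gained, Col5a1 1416740_at at day 27 (0.28, adjusted p = 0.0424). The largest changes at day 35 were then 0.71 (SE 0.235, adjusted p = 0.17) for Col3a1 and 0.65 (SE 0.219, adjusted p = 0.175) for Col1a2 1423110_at, with larger standard errors than without it. Some other changes shrank by over 1.5 times, from 0.39 to 0.18 for Col1a2 1450857_a_at and from 0.52 to 0.30 for Col5a2 1422437_at at day 35, and from 0.22 to 0.05 for Col5a2 late against early. Others grew at day 35 without being called. These went from 0.30 to 0.55 for Col5a1 1434479_at and from 0.19 to 0.31 for Col5a1 1416740_at. Col14a1 1428455_at went from 0.19 to 0.37 and Col15a1 from 0.0024 to 0.24. Over all of array A the day 35 calls went from 217 higher and 683 lower to 10 in all. Day 35 did not overlap PBS in this mean, so its part and that of the decoy cannot be told apart.

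**Figure D4:**
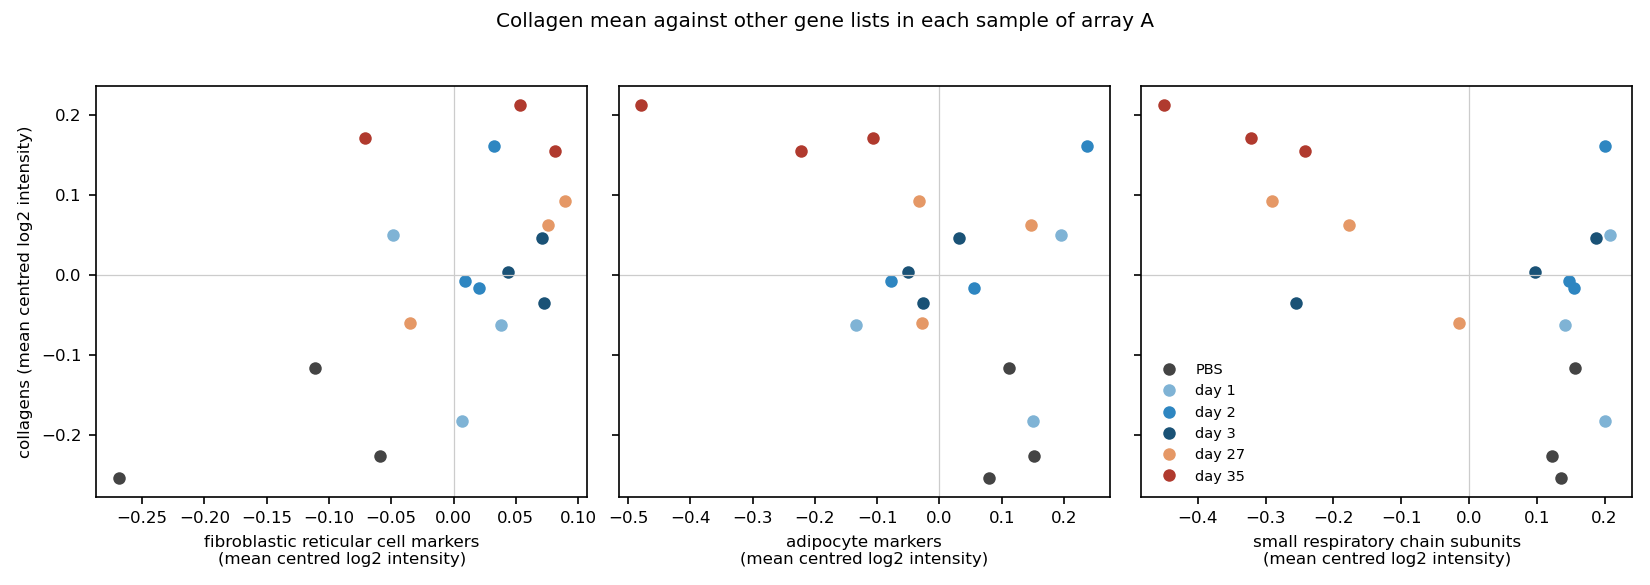
Mean centred log2 intensity of the 16 tested collagen probe sets of array A in each sample, against that of 3 other lists; colours mark the day. The 3 day 35 samples are highest in collagen with 1 day 2 sample between them, lowest in small respiratory chain subunits apart from day 27 sample 3 and day 3 sample 3, and low in adipocyte markers.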

How the data were processed

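The authors deposited 1 linear intensity per probe set and array, from 2 Affymetrix arrays measured in mouse mesenteric lymph nodes. The sources used here do not give the software, background correction or scaling that produced them. Depth has no meaning for arrays, and their number limits the precision. Deposited intensities were used unscaled. A floor was set at each table's 20th percentile (122.6 for A and 76.57 for B), intensities were then taken to log2, and probe sets above the table median on at least 3 of 18 arrays were tested, 12231 and 12516. Each table was fitted with limma 3.58.1 in R 4.3.3 (lmFit, eBayes with trend) with 6 groups and no covariate, two-sided, with Benjamini-Hochberg adjustment over the table, called under 0.05. A log2 change is the first group minus the second.

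Members and gene lists were chosen with earlier results of these data known. Named genes are all member probe sets, up to 4 genes per list with the smallest p in the late mean, and the 8 genes with the highest r. In lists, 1 tested probe set, the brightest, stands for a gene. On simulated arrays the day 35 contrast called 36% of 50 probe sets changed by 0.3 (log2), 72% of 50 changed by 0.5 and 100% of those changed by 1 on array A (12231 probe sets). The simulated noise was independent between probe sets, and 160 were called in all. In the data 217 were called higher and 683 lower at day 35, so the rates may differ there. Alternatives covered scaling, floor, filter, variance trend, array weights, replicate block, groups fitted, left-out arrays and a covariate. For array B the covariate and the 3 samples left out for low weight were taken from array A by day and number.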

Additional observations from a re-analysis of the deposited data

Results flagged for a closer look

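The difference between the late days and the early days was itself past the threshold for 4 collagen probe sets (limma, mean of days 27 and 35 minus mean of days 1 to 3), beside 4.98% of array A called higher. An unadjusted p under 0.05 was found for 5 of 17 collagen probe sets, about the same share as the 29.4% of array A. By that count the collagens did not stand out from the array. Their median log2 difference on array A was 0.088, beside 0.017 for all tested probe sets. The log2 differences were 0.40 for Col1a2 1423110_at, 0.26 for Col5a1 1434479_at, 0.22 for Col5a2 1422437_at and 0.19 for Col6a3 1424131_at. Col5a1 1434479_at was called against PBS in neither the early nor the late mean (-0.04 and 0.22). The call of Col6a3 was lost with common-median scaling (adjusted p = 0.0759), and all 4 were lost with the small-subunit mean as covariate.

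All day 35 samples also lay above all 3 PBS samples in the 3 probe sets that were too dim to be tested, a pattern shown by 15.9% of the tested probe sets of array A and 15.4% of those of array B. Those shares are of brighter probe sets, and the share among untested ones was not computed. The day 35 mean was 43.7 ± 4.02 intensity units for Col1a2 1446326_at on array B against 31.7 ± 2.32 in PBS samples, both under that array's floor of 76.57, so they do not differ once the floor is set. For Col3a1 1427884_at it was 177.9 ± 35.4 against 89.99 ± 4.44, and for Col5a2 1450625_at 162 ± 13.4 against 113 ± 19.5 (SD, n = 3 each). These 3 probe sets were not tested.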

How the results depend on the processing

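No call changed direction under any alternative. Single arrays left out gave 0 to 0 member calls at days 1 and 2 and for day 35 against day 27, 0 to 2 at day 3, 0 to 4 at day 27, 6 to 9 at day 35, 0 to 1 in the early mean, 5 to 10 in the late mean and 3 to 5 late against early. With the small-subunit mean as covariate, 0 probe sets were called at day 3, at day 35, in the early mean, in the late mean and late against early, and 1 at day 27. Array weights gave 6 at day 2, 4 at day 3, 9 at day 27, 14 at day 35, 4 in the early mean and 2 for day 35 against day 27. Without the 3 samples of low weight there were 2 at day 2, 2 at day 3, 7 at day 27 and 2 in the early mean. That fit called 63 of the 12231 probe sets of array A at day 3 and 39 in the early mean, in either direction. At day 35 it called 1831, against 217 higher and 683 lower as reported. For array weights and single arrays left out, calls over all probe sets are not given here. Those counts therefore cannot be read as particular to the collagens. With no filter all 20 collagen probe sets entered, against 17 as reported. At day 3 quantile scaling gave 2, and no filter or only the groups compared gave 0. At day 27 no filter gave 4 of 20 and only the groups compared 0. In the early mean the call of Col3a1 was lost (0) with common-median scaling, with no filter, without the variance trend and with the replicate block. The cause was not tested. Deviations of treated samples from their group means were correlated with those of the same-numbered PBS sample. The r lay between -0.25 and 0.37 on array A, with 5 of 15 over 0.1, and between -0.41 and 0.49 on array B, with 11 of 15 over 0.1. Samples of different number were not set beside these, so the values do not decide whether samples are paired. The labels name no shared source, and the numbers were not taken to pair the samples. The fit with the replicate block gave 4 calls at day 27 and 0 in the early mean. Of the 26 calls, quantile scaling, both other floors, the stricter filter, array weights and the fit without 3 samples held all. Only the groups compared lost 6, common-median scaling 5, no filter 4, and no variance trend and the replicate block 1 each. The floor hides differences among dim probe sets, and 3 samples per group leave changes near 0.3 often uncalled in simulation.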
